A study of Mus musculus with 4 samples.

Results

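Genes for 5 chemokine receptors, Ccr1, Ccr2, Ccr3, Cxcr4 and Cx3cr1, were examined in peritoneal exudate cells of mice lacking the transcription factor C/EBPε (gene Cebpe) and of wild-type mice. The receptors were selected by symbol, with earlier differences between these genotypes already known. Their ratios between genotypes are therefore given as a description and not as a test. Of the 5 genes, 4 had a probe set annotated with that symbol alone, and Cx3cr1 had none, so 5 probe sets (Cxcr4 has 2) stood for the receptors among 6137 named genes and 13069 probe sets. The Cebpe-deficient group was C/EBPe-/- mice and the other group C/EBPe+/+ mice, both from 129/SvEv x NIH Black Swiss stock and aged 6 to 8 weeks. All mice had received 2 ml of 4% thioglycollate broth, a sterile irritant, into the peritoneal cavity 24 h before the cells were washed out. Per the labels 4 mice of each genotype were injected, and the text on how their cells were combined breaks off. Total RNA of each genotype was read on 1 array of each of 2 Affymetrix types, called A and B here, which carry different probe sets. There was thus no replicate of any value and no p-value could be given. The labels report about 30% monocytes, 60% neutrophils and 7 to 10% lymphocytes by cytospin for both genotypes, and name no eosinophil share.

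Chemokine receptors are membrane proteins of leukocytes that couple to inhibitory G proteins and steer migration along gradients of chemokines. CCR2 carries classical monocytes out of the bone marrow and into inflamed tissue, CCR1 serves monocytes and mouse neutrophils, and CCR3, the eotaxin receptor, serves eosinophils. CXCR4 holds myeloid cells in the marrow through its ligand CXCL12, and CX3CR1 binds fractalkine on monocytes and macrophages. C/EBPε acts late in granulocyte maturation, of neutrophils and of eosinophils.

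Ccr1 and Ccr3 had lower signal in Cebpe-deficient cells, by 2.64-fold and 3.79-fold, while Ccr2 was 1.95-fold higher. Cxcr4 was 3.45-fold higher by its probe set on A and 1.17-fold higher by that on B. All 5 probe sets lay above the signal floor, the median signal of an array type (1036.5 on A and 690.17 on B), in both genotypes. Counting receptor probe sets at 2-fold or more, 1 of 2 on A was higher and 2 of 3 on B were lower in Cebpe-deficient cells. Over all measured probe sets 2.54% of 2949 on A were higher and 3.76% of 2954 on B lower by as much, and 6.84% of 5903 on both types passed 2-fold in either direction. Since the receptors were selected with these ratios known, nothing is read from that comparison. Repeat probe sets of a gene gave the only error available, an SD of 0.34 log2 units for probe sets averaging 3 times the floor or more and 0.46 for dimmer ones. No array was repeated, so that error holds no spread between mice and does not measure that between repeat labellings or hybridisations. In a mixture of cells, fewer cells of a type and less RNA per cell cannot be told apart. The targeted gene had no probe set named Cebpe alone, so the genotype labels were not checked against it.

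**Figure D1:**
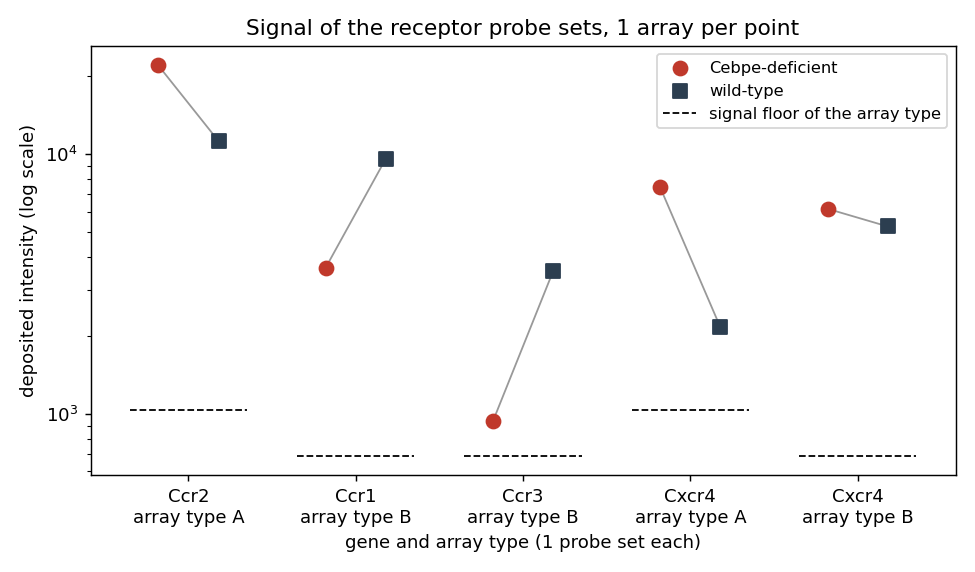
Deposited intensity (log axis) of each receptor probe set on the Cebpe-deficient array (circles) and the wild-type array (squares) of its type, with the signal floor of that type as a dashed line. Ccr1 and Ccr3 lie lower and Ccr2 and Cxcr4 higher in Cebpe-deficient cells, and the deficient Ccr3 value, 936, is the nearest to its floor of 690.17.

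Ccr2, the receptor of classical monocytes for CCL2, CCL7 and CCL12, was read on array type A. Its signal was 21898 in Cebpe-deficient cells and 11204 in wild-type cells, which is 21.1 and 10.8 times the floor. The log2 ratio was 0.97, or 2.85 times the error SD, just under the 2-fold mark. It ranked 90th from the highest of 2949 measured probe sets on A. Other genes typical of classical monocytes did not share one direction. Of 9 such genes with a probe set, 6 were measured, 2 higher and 4 lower, and their median was -0.36 (log2 ratio), against 0.01 over all 3132 measured genes. Csf1r, the receptor for macrophage colony-stimulating factor, stood at 0.84, with signals of 37383 in Cebpe-deficient and 20858 in wild-type cells. Ly6c2, a surface antigen of classical monocytes, read 6369 in Cebpe-deficient and 8095 in wild-type cells on B, a log2 ratio of -0.35. Its probe set on A gave -0.16, and both carry a suffix that marks probes shared by related genes. Cd14, the lipopolysaccharide co-receptor, stood at -1.03. Summed over the list, signal was 156969 in Cebpe-deficient and 204731 in wild-type cells. That sum rests mainly on Cd14, at 41219 in Cebpe-deficient and 84127 in wild-type cells, and on the lysozyme gene Lyz2. Lyz2 read 46948 in Cebpe-deficient and 63063 in wild-type cells, while Csf1r, the next largest, was higher in Cebpe-deficient cells. Neutrophils were about 60% of the cells by the labels, and their part in the signal of these genes was not separated. The list therefore does not stand for monocyte number alone. The part of monocyte content in the Ccr2 ratio was not tested.

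Ccr1, an inflammatory receptor for CCL3, CCL6 and CCL9, was read on B at 3645 in Cebpe-deficient cells and 9588 in wild-type cells. These signals were 5.28 and 13.9 times the floor, so both were well clear of it. The log2 ratio of -1.40 was 4.12 times the error SD and ranked 43rd from the lowest of 2954 measured probe sets on B. Mouse neutrophils use this receptor together with Cxcr2, the receptor for CXCL1 and CXCL2. Cxcr2 read 571 in Cebpe-deficient and 2120 in wild-type cells, and, being below the floor in Cebpe-deficient cells, was at least 2.05-fold lower in them. Of 15 neutrophil genes with a probe set, 10 were measured, 2 higher and 8 lower, with a median log2 ratio of -0.57, and 3 more passed the floor on the wild-type array alone (median -0.62 with these). The calprotectin genes S100a8 and S100a9, abundant in neutrophils, stood at -0.08 and -0.24, whereas Csf3r, the receptor for granulocyte colony-stimulating factor, stood at -1.31 and the surface antigen gene Ly6g at -1.44. The lowest of the list were Il1r2 at -2.40, Ngp at -1.57 and Mxd1, with a bound of -3.05. Summed signal of the neutrophil list was 150087 in Cebpe-deficient and 211287 in wild-type cells, with the serine protease gene Prtn3 and the cathelicidin gene Camp below the floor in both. Because C/EBPε acts in neutrophil maturation, the list does not stand for neutrophil number alone. The part of neutrophil content in the Ccr1 ratio was not tested.

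Ccr3, the eosinophil receptor for eotaxins, had the lowest ratio of the receptors. It read 936 in Cebpe-deficient cells and 3539 in wild-type cells on B. The deficient value was 1.35 times the floor and the wild-type value 5.13 times, and the log2 ratio of -1.92 ranked 16th from the lowest of 2954. With the floor raised to the 70th percentile, the deficient value fell below it and the log2 bound was -0.79, under 2-fold. Defining eosinophil genes gave no signal above the floor in either genotype. Epx, eosinophil peroxidase, read 500 in Cebpe-deficient and 204 in wild-type cells. Il5ra, the interleukin 5 receptor chain, read -151 and Prg2, the major basic protein gene, -1529 in Cebpe-deficient cells, against -121 and -1234 in wild-type cells. Of 4 eosinophil genes with a probe set, the exception was Alox15, a lipoxygenase gene that resident peritoneal macrophages also express, at 8262 in Cebpe-deficient and 13661 in wild-type cells (log2 ratio -0.73). Mast cells and basophils can also carry CCR3. Of 11 of their genes with a probe set, 5 were measured, with a median log2 ratio of 0.05 (-0.04 with 3 bounded genes). None of these 5 was at 2-fold or more, where 6.64% of all measured genes were, so little is read from that. Summed signal was 13175 in Cebpe-deficient and 13126 in wild-type cells, a sum that includes genes below the floor. The brightest of the 5, Tpsb2, was at 3.12 times the floor in Cebpe-deficient and 3.43 times in wild-type cells. The basophil protease gene Mcpt8 read 1197 in Cebpe-deficient and 1153 in wild-type cells by 1 probe set. By its other probe set it read 153 in Cebpe-deficient and 162 in wild-type cells, below the floor in both.

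**Figure D2:**
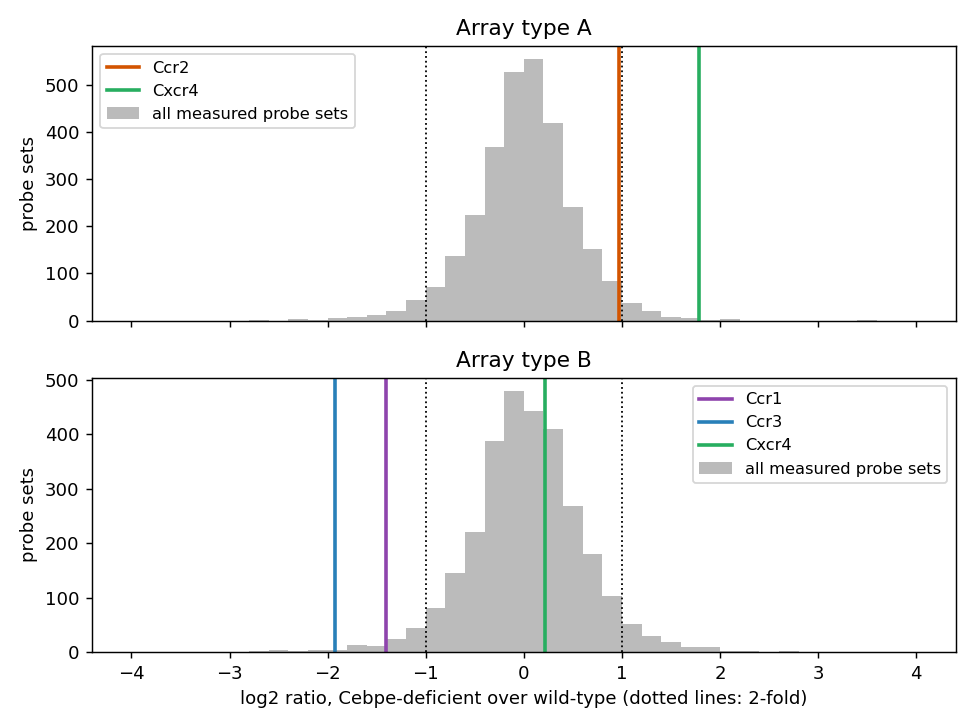
Number of measured probe sets by log2 ratio, Cebpe-deficient over wild-type, on array types A and B (grey bars, 0.2 log2 units wide), with each receptor probe set as a coloured line and 2-fold as dotted lines. Cxcr4 on A (1.79) and Ccr1 and Ccr3 on B (-1.40 and -1.92) lie past the dotted lines, Ccr2 on A (0.97) lies just inside, and Cxcr4 on B (0.22) lies near the centre.

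Ccr1, Ccr3 and Ccr2 are neighbours on mouse chromosome 9 (RefSeq, GRCm38.p6). Ccr1 spans chr9:123962126-123968692, Ccr3 chr9:124017825-124031692 and Ccr2 chr9:124101918-124109140, all within 147 kb. Ratios along this stretch alternated in sign. Between Ccr1 and Ccr3 lies Ccr1l1, a Ccr1-like receptor gene, which read 1663 in Cebpe-deficient and 869 in wild-type cells, a log2 ratio of 0.93 from signals 2.41 and 1.26 times the floor. The order on the chromosome was therefore lower for Ccr1 (-1.40), higher for Ccr1l1 (0.93), lower for Ccr3 (-1.92) and higher for Ccr2 (0.97). Related receptor genes can share hybridisation signal, and that was not tested here because probe sequences were not used. The receptor genes Xcr1, Cxcr6 and Ccr9, within 300 kb of Ccr1, had no named probe set. Cx3cr1 lies on the same chromosome at chr9:120048683-120068296, 3.89 Mb away, and Cxcr4 on chromosome 1 at chr1:128588199-128592299.

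The RefSeq table held a promoter for each of the 5 receptors. Those of the 3 neighbours are shown, because their genes differed in direction between genotypes. Each is the 250 bases before the annotated start, 5′ to 3′ on the gene's strand, at chr9:123968693-123968942 (minus strand) for Ccr1, chr9:124021721-124021970 (plus) for Ccr3 and chr9:124101933-124102182 (plus) for Ccr2. The windows of Ccr3 and Ccr2 lie within those genes' annotated spans, which include other starts. Capitals mark matches, on either strand, to the motifs described after the sequences.
Ccr1: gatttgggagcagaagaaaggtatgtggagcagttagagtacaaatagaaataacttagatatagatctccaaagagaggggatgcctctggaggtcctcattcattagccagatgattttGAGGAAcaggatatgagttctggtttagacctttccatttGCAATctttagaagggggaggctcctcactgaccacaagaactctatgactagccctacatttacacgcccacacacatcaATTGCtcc
Ccr3: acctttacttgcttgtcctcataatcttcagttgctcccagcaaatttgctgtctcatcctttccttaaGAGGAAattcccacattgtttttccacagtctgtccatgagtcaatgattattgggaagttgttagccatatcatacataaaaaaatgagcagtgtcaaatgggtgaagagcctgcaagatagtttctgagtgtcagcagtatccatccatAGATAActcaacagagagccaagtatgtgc
Ccr2: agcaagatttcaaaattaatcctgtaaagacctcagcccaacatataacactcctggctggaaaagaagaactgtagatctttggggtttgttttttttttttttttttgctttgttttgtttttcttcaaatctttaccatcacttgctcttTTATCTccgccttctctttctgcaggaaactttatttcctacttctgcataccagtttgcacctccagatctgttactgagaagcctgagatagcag
Motifs searched on both strands were TTGCNNAA, a full site of the C/EBP family, its core GCAAT, the PU.1 core GAGGAA and the GATA site AGATAA. Among 32851 RefSeq windows of the same length, 9.56%, 23.1%, 23.3% and 9.99% held them. The Ccr1 window held GCAAT at 89 bases before the start and its reverse complement ATTGC at 8 bases, and GAGGAA at 129 bases. Ccr3 held GAGGAA at 181 bases and AGATAA at 30 bases, and Ccr2 held only TTATCT, the reverse complement of AGATAA, at 97 bases. The Cx3cr1 window, not shown, held GCAAT at 237 and 184 bases, and that of Cxcr4 held no match. None of the 5 windows held the letters TTGCNNAA. A match is a description of letters and not of a bound site.

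Cxcr4, the CXCL12 receptor that retains neutrophils and their precursors in the marrow, was read by 2 probe sets. On A it gave 7428 in Cebpe-deficient cells and 2150 in wild-type cells, a log2 ratio of 1.79 that ranked 7th from the highest of 2949. On B it gave 6150 in Cebpe-deficient cells and 5258 in wild-type cells, a log2 ratio of 0.22 and 0.647 times the error SD. Both readings were higher in Cebpe-deficient cells, but they differed from each other by 1.56 log2 units. Of 129 genes with 1 measured probe set on each array type, 3 (2.33%) differed by as much, with a median difference of 0.33, and Cxcr4 is among these 3. Relative to the floor the signals were 7.16 times in Cebpe-deficient and 2.07 times in wild-type cells on A, and 8.90 times in Cebpe-deficient and 7.63 times in wild-type cells on B. The mean of both was 1.01. A size for the Cxcr4 difference is therefore not given by these data, and its cause was not tested. Both Cxcr4 probe sets and that of Ccr2 carry a suffix that marks probes shared by several transcripts.

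Receptors of different leukocytes were set side by side. The Ccr2 ratio exceeded that of Ccr1 by 2.36 log2 units and that of Ccr3 by 2.89, where the repeat error of such a difference is 0.49 (SD). That error holds no spread between mice or between repeat arrays. It is that of the brighter probe sets, though the deficient Ccr3 signal was 1.35 times the floor. Ccr2 was read on A but Ccr1 and Ccr3 on B, and between these types the Cxcr4 readings differed by 1.56. The Ccr3 and Ccr1 ratios differed by 0.52, about that error. Both Cxcr4 readings lay above those of Ccr1 and Ccr3, by 3.19 and 3.71 on A and by 1.62 and 2.14 on B. Ccr2 lay between the Cxcr4 readings, 0.82 below that on A and 0.74 above that on B. Over 7 alternative ways of scaling the arrays or setting the floor, the sign of each of the 5 values was kept, with Ccr1 between -1.57 and -1.08 and Ccr2 between 0.94 and 1.15. Cxcr4 on B came down to 0.05 with equal medians, within the error of 0. Ccr2 passed 2-fold in 2 of the 7, at 1.03 with equal medians and 1.15 with bacterial-control scaling.

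**Figure D3:**
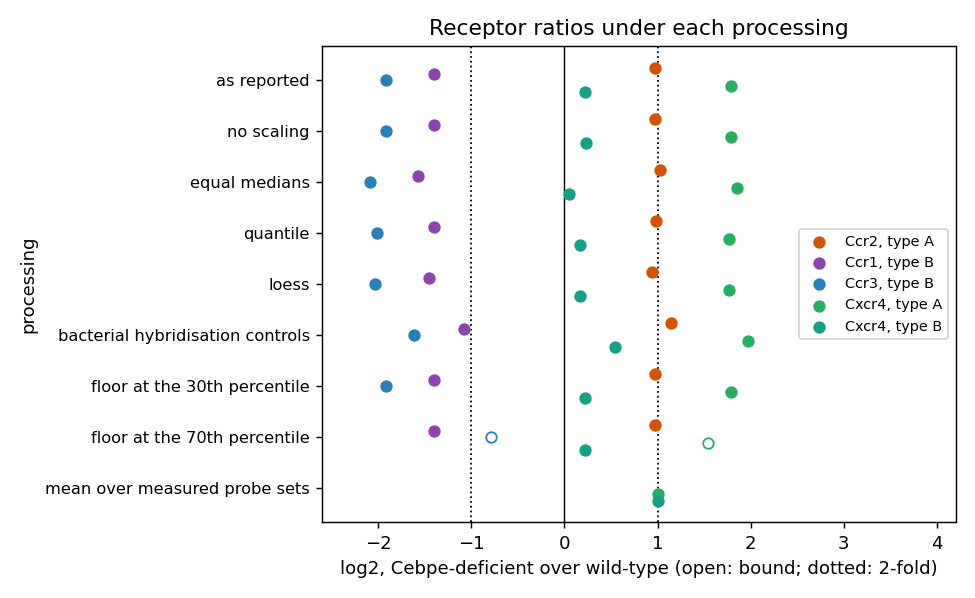
Log2 value, Cebpe-deficient over wild-type, of each receptor probe set under each way of scaling the arrays, setting the floor or averaging probe sets (open circles are bounds, dotted lines 2-fold). Ccr1 stays past 2-fold lower throughout, Ccr3 comes inside 2-fold as a bound of -0.79 with the floor at the 70th percentile, and the mean over the Cxcr4 probe sets is 1.01.

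Of 19 further chemokine receptor genes, 8 had a probe set, and 3 of those were measured in both genotypes. Ccrl2, an atypical receptor that presents chemerin, was 2.26-fold higher, with 2638 in Cebpe-deficient and 1167 in wild-type cells. Cxcr5, the follicular homing receptor of B cells, read 1333 in Cebpe-deficient and 831 in wild-type cells (log2 ratio 0.68). With Ccr1l1 the measured 3 were all higher (median 0.93, or 0.49 with 4 bounded receptors), each from a wild-type signal of at most 1.26 times the floor. Over all measured genes 51.0% were above 0, and 6.64% were at 2-fold or more in either direction. Apart from Cxcr2, receptors above the floor in 1 genotype had bounds under 2-fold. Ccr7, which directs cells to lymph nodes, passed the floor on the wild-type array alone (861 in Cebpe-deficient and 1507 in wild-type cells), as did Ackr1 by 1 of its probe sets, and Ccr4 passed it on the deficient array alone (1458 in Cebpe-deficient and -9 in wild-type cells). The scavenging receptor gene Ackr3 was below the floor in both. Among other chemoattractant receptors, C3ar1, the receptor for complement C3a, stood at 0.98 with 15121 in Cebpe-deficient and 7684 in wild-type cells. Ptafr, the receptor for platelet-activating factor, stood at 0.66. S1pr1 and Cmklr1 were below the floor in both genotypes.

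Genes for ligands of CCR1 and CCR2 had lower signal in Cebpe-deficient cells. Of 11 ligand genes with a probe set, 7 were measured and all 7 were lower without C/EBPε. Their median log2 ratio was -0.87, and 2 of the 7 passed 2-fold. Of all 3132 measured genes 1534 were below 0, and 6.64% were at 2-fold or more in either direction. The ligand list was chosen with earlier results of these data known, so these counts are a description. Among ligands of CCR2, Ccl2 read 3691 in Cebpe-deficient and 18522 in wild-type cells. Ccl7 read 1099 in Cebpe-deficient and 9072 in wild-type cells, and Ccl12 read 1349 in Cebpe-deficient and 1808 in wild-type cells. The Ccl12 log2 ratio of -0.42 was within the error SD of 0.46 for dim probe sets. Ligands of CCR1 included Ccl3 at a log2 ratio of -0.96, Ccl6 at -0.87 and Ccl9 at -0.66. Ccl4, a macrophage inflammatory protein gene, stood at -0.33, within the error SD of 0.34. Its other probe set read 322 in Cebpe-deficient and 2332 in wild-type cells, at least 2.25-fold lower. The eotaxin gene Ccl11, the CXCR4 ligand gene Cxcl12, the fractalkine gene Cx3cl1 and Ccl5 were below the floor in both genotypes. Ccl11 read -40 in Cebpe-deficient and -45 in wild-type cells, and Cxcl12 read 908 in Cebpe-deficient and 834 in wild-type cells. Ccr1 and its measured ligand genes were thus lower together, and Ccr2 was higher where its ligand genes were lower, Ccl12 by less than the error.

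**Figure D4:**
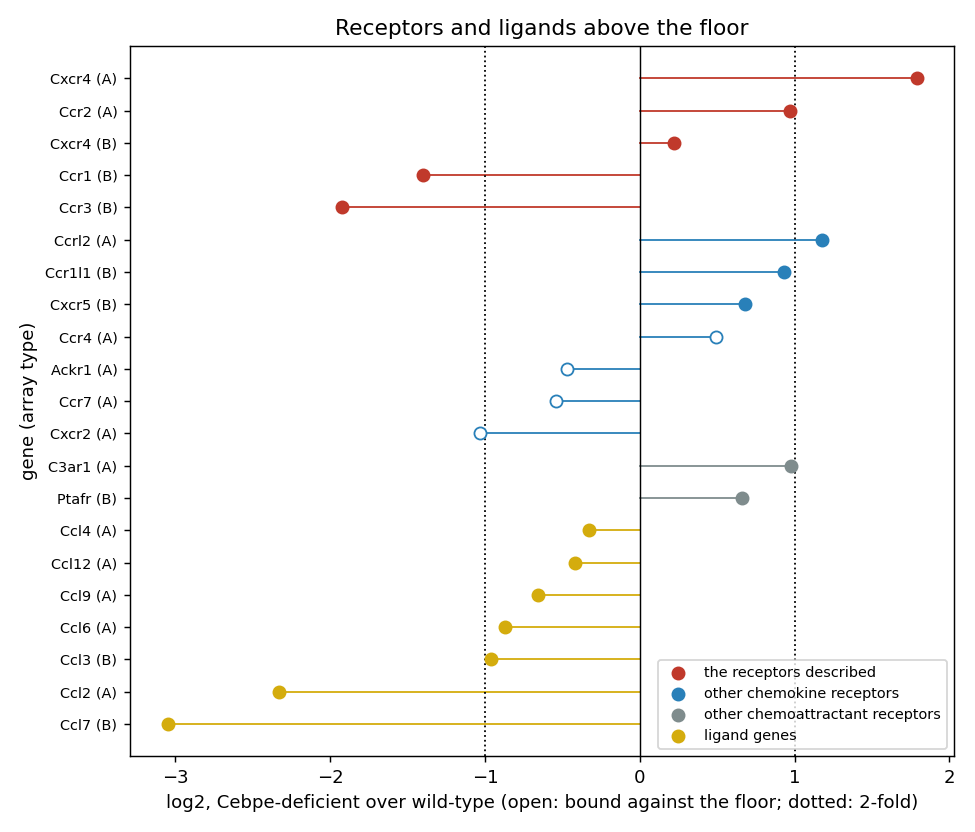
Log2 value, Cebpe-deficient over wild-type, of the receptors, other chemokine and chemoattractant receptors and ligand genes that were above the floor in at least 1 genotype (filled circles are ratios, open circles bounds against the floor, dotted lines 2-fold). The 7 ligand genes all lie below 0, from -3.05 for Ccl7 to -0.33 for Ccl4, whereas receptors lie on both sides.

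Signalling genes downstream of these receptors lay on both sides of 0. Of 16 with a probe set, 15 were measured, 8 higher and 7 lower, with a median of 0.10 that turned to -0.06 with equal medians. Gnai2, the inhibitory G protein subunit through which chemokine receptors signal in leukocytes, read 31873 in Cebpe-deficient and 29666 in wild-type cells on B (0.10) and stood at 0.41 by its probe set on A. The guanine exchange factor gene Dock2 stood at 0.10, Rac2 at -0.21 and the G protein gene Gnb2 at 0.95. Plcb3, a phospholipase C, was the only 1 of the 15 at 2-fold, where 6.64% of all measured genes were. It stood at -1.02 by 1 probe set and was near the floor by the other.

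Markers of the remaining cell types were read the same way. Non-classical monocyte genes, of the cells in which CX3CR1 is high, had a median of -0.15 (8 with a probe set, 5 measured, 2 higher and 3 lower). With the integrin gene Itgal at its bound, at least 2.68-fold higher from 2777 in Cebpe-deficient and -4 in wild-type cells, the median was 0.18. Among the measured ones Nr4a1, the nuclear receptor those cells depend on, was 2.29-fold higher and Fabp4 2.70-fold lower, and summed signal was 31969 in Cebpe-deficient and 27337 in wild-type cells. Resident macrophage genes had a median of -0.66 over 4 measured, 1 higher and 3 lower, from the plasminogen activator inhibitor gene Serpinb2 at -1.68 to the coagulation factor gene F10 at 0.36, with the surface receptor gene Adgre1 at -0.52. B cell genes had a median of -0.24 over 4, 1 higher and 3 lower. Of 9 T and NK cell genes 6 were below the floor in both genotypes, among them Cd4, Cd8a, Cd3d and Cd3g. The granzyme gene Gzma read 2771 in Cebpe-deficient and 4379 in wild-type cells (-0.66), the T cell receptor chain gene Cd247 stood at -0.20, and Cd3e had a bound of -0.88. Of 4 measured mesothelial and fibroblast genes, the matrix genes Col3a1 and Sparc stood at -1.70 and -1.51, and Col1a1 and the mesothelial gene Wt1 at -0.19 and -0.14. Col1a1 stood at -0.58 by another probe set on A. Its probe set on B read 608 in Cebpe-deficient and 3335 in wild-type cells, at least 4.84-fold lower. The median of the 4 genes was -0.85, or -0.19 with 1 bounded gene, and 5 of 10 were below the floor, the mesothelial genes Msln and Upk3b among them. Dendritic cell genes had a median of 0.18 over 3, with the actin-bundling gene Fscn1 at -1.18, Cd83 at 0.18 and the transcription factor gene Zbtb46 at 0.92. The part of these cells in the receptor ratios was not tested.

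**Figure D5:**
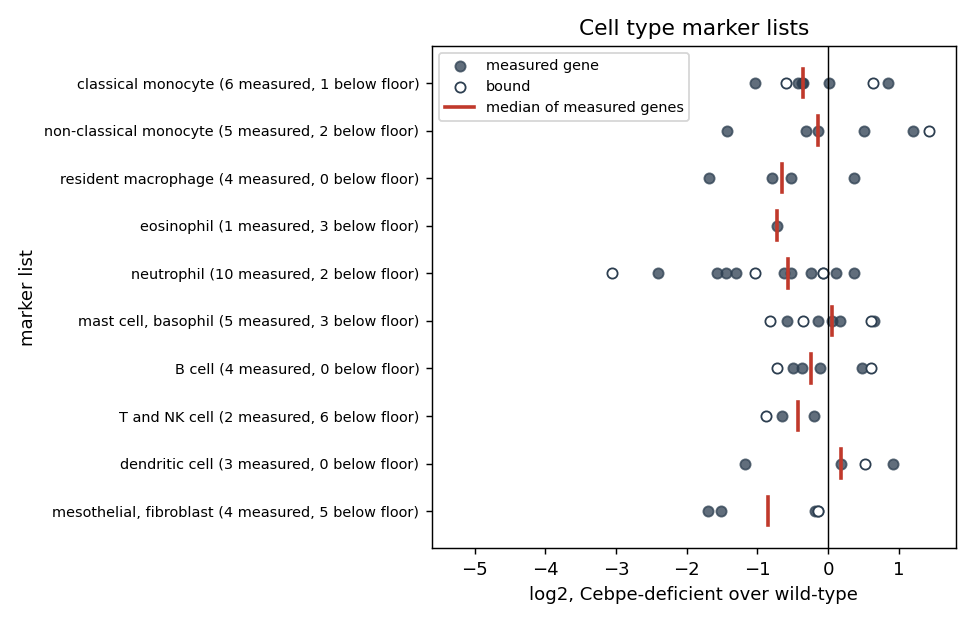
Log2 value, Cebpe-deficient over wild-type, of each gene in 10 cell type marker lists (filled circles measured in both genotypes, open circles bounds, red bars medians of the measured genes), with the number measured and below the floor beside each name. The neutrophil list has its median at -0.57, and of the eosinophil list 1 gene is measured and 3 are below the floor.

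The genes closest to each receptor in signal were taken as the nearest pair by Euclidean distance in log2 deficient and log2 wild-type signal on the same array type, which rests on 2 arrays only. For Ccr2 they were Klf2, a transcription factor of leukocyte trafficking, at a distance of 0.078 and the kinase gene Stk24 at 0.081. For Ccr1 they were Foxf1 (0.34) and Ccnd1, the cyclin D1 gene (0.35). For Ccr3 they were Ttf1 (0.085) and Sparc, a matrix protein gene (0.32). For Cxcr4 they were Tnfrsf1b, a TNF receptor gene, at 0.18 and Gpr137b at 0.19 on A, and Gga2 (0.036) and Htr5a (0.038) on B.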

How the data were processed

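The deposited values are intensities, 1 whole number per probe set and array on a linear scale, with 20.6% to 29.3% of the values below 0. How the authors corrected background and scaled these intensities, and with which software, is not given in the sources used here. Groups came from the sample titles, and the RNA source text of the deficient array of type B does not name the deficiency. Gene names came from the platform annotation (7542 non-control probe sets with 1 symbol), and promoters from RefSeq, GRCm38.p6. Within each type the pair of arrays was brought to 1 trimmed mean (2% off each end, controls left out), by factors of 0.999 to 1.001. As floor served the median signal over both arrays of a type. Probe sets past it on both arrays have a log2 ratio (Cebpe-deficient over wild-type), and those past it on 1 array a bound. A gene was read by its measured probe set of highest signal relative to the floor. Summed signals of a list include its genes below the floor, with values below 0 set to 0. No ratio was tested, with 1 array per genotype and type, and the number of arrays limits the precision. All probe sets of the receptors were named, with listed genes of receptors, ligands, signalling and cell types, the nearest 2 genes and chromosomal neighbours. The receptors and lists were chosen with earlier results of these data known. Alternatives were other scalings, floors at the 30th and 70th percentile, 3-fold, no suffixed probe sets and the mean over probe sets. The procedure was tested on simulated data. Tools were scipy 1.17.1, pandas 2.3.3, numpy 2.4.6, statsmodels 0.14.6 (loess), matplotlib 3.10.9 and Python 3.11.15.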

Additional observations from a re-analysis of the deposited data

How the results depend on the processing

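The 7 alternatives of scaling and floor kept the sign of the 5 receptor values, with Cxcr4 on B as low as 0.05 under equal medians. The 3-fold count was made over all probe sets alone, as was the count without suffixed ones, which leaves out Ccr2 and Cxcr4. Raising the floor to the 70th percentile gave Ccr3 a log2 bound of -0.79 in place of a ratio, since 936 fell below that floor, and gave Cxcr4 on A a bound of 1.54. Averaging the 2 Cxcr4 probe sets gave 1.01 for each. Counts of probe sets at 2-fold, 200 higher and 204 lower, became 444 and 116 with bacterial-control scaling, 660 and 630 for a 30th-percentile floor, 76 and 67 for the 70th, 38 and 49 at 3-fold, and 35 and 32 without suffixed probe sets, where fewer were counted. The median of mesothelial and fibroblast genes became -1.29 with bacterial-control scaling, which moved the median of all probe sets to 0.25. At the 30th-percentile floor, where more genes are measured, it was -1.51 and that of neutrophil genes -1.31. Medians near 0 changed sign: non-classical monocyte genes to 0.16 under bacterial-control scaling and 0.18 at the 30th-percentile floor, mast cell and basophil genes to between -0.11 and -0.07 under equal medians, quantile and loess, and B cell genes to 0.01 under bacterial-control scaling. No paired analysis was possible because each genotype has 1 array of each type and no result comes from a test. Leaving out 1 array would leave no ratio on its type. Dim signals limit Ccr3, Ccr1l1, Ccrl2 and Cxcr5, each at most 1.35 times the floor in 1 genotype.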
